A study of Danio rerio with 6 samples.

Results

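The RNA content of zebrafish larvae that had received no tire leachate was described from the surfactant control group, which held 3 of the 6 samples of the series and was taken by its sample labels. The fish (Danio rerio) were wild-type, with no strain given. Embryos were kept from 4 to 168 h post-fertilization in medium with 0.001% bovine serum albumin, 200 eggs to a dish, at 27 °C with 14 h of light and 10 h of dark, and were moved to fresh medium at 72 h. Each sample was RNA from a pool of 80 larvae, depleted of ribosomal RNA and sequenced. The labels call the pools biological replicates, and they give neither the hour of collection nor any feeding of the larvae. No level of the leachate samples of the series is used here, although every gene in the data was also read in them. A pool averages over many larvae and over all of their tissues, so the levels are those of a whole animal.

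At this age a zebrafish larva has hatched, swims, has a working eye, liver, pancreas and gut, and has used up most of its yolk. Its trunk is mostly fast skeletal muscle, which contracts through actin, myosin and the troponin complex, buffers calcium with parvalbumins and regenerates ATP with creatine kinase. An ancestor of the teleost fishes duplicated its whole genome, and many zebrafish genes are therefore kept as paired copies whose names end in a or b. Such copies often split the work of the ancestral gene between tissues.

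Levels are TPM, a gene's reads divided by its length and scaled to the same sum in each sample, wherever genes are compared with each other. Where a gene is compared between pools, they are CPM, its count share on the same scale with trimmed mean of M-values (TMM) library scaling. A run of 3 values gives controls 1, 2 and 3 in that order, and a value with ± is the mean and SD over these pools unless an SE is named.

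The deposited table held 24826 genes, with 48431952, 37030725 and 46778228 counts in the control pools, and each gene had at least 1 count in every sample of the series. Genes that went unread in some sample are therefore missing from it, and no marker below stands at 0. Control 2 stood apart. Divided by its degrees of freedom, the chi-square of the counts over genes was 81.9 for controls 1 and 2, 87.2 for controls 2 and 3 and 22.2 for controls 1 and 3. In the longest of 10 equal classes of gene length the median log2 deviation from the mean of the pools was -0.04, 0.19 and -0.15, and in the shortest class it was -0.04, -0.07 and 0.12. Long genes were thus relatively high in control 2. Counts of variable genes and the CVs of gene lists are given with and without it.

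By TPM the larval RNA was led by genes for ribosomal proteins and fast muscle proteins, by a non-coding RNA of the nucleus and by pancreatic proteases. The 30 genes with the highest mean TPM held 28.5% ± 2.25 of all TPM, and the 100 highest held 52.6% ± 2.01. These 100 counted 57 ribosomal protein genes, 9 genes of the fast muscle list, 5 mitochondrial genes, 5 of the exocrine pancreas, 3 of the epidermis, 3 of the lens and 2 of the liver. Below this peak the levels spread widely. Of all genes, 19251 (77.5%) had a mean of at least 1 TPM, 5870 (23.6%) of at least 10 TPM and 704 of at least 100 TPM, and the median gene stood at 3.63 TPM.

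The most abundant gene was rn7sk, which encodes the 7SK RNA that holds the elongation factor P-TEFb in an inactive complex, at 37620, 77138 and 62758 TPM. It was lowest in control 1 and alone made up 3.76%, 7.72% and 6.28% of TPM, but a mean of 1.59% of counts. The RNA of ribonuclease P, rpph1, which trims the ends of precursor tRNAs, was also lowest in control 1, at 2108, 7314 and 5837 TPM. Both RNAs lack a poly(A) tail and are kept in libraries made from total RNA.

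Fast muscle genes followed. The parvalbumin gene pvalb2 stood at 28650, 35043 and 31524 TPM and pvalb1 at 23174, 29336 and 24224 TPM. The actin gene actc1b, named for cardiac actin but expressed throughout zebrafish skeletal muscle, stood at 16125, 18052 and 15686 TPM. Each of these genes was highest in control 2 as TPM, whereas on the CPM scale pvalb2 was highest in control 3, at 15693, 19958 and 20650 CPM. The creatine kinases ckma and ckmb had 7278 ± 377 and 4878 ± 81.8 TPM, and the thin filament genes tpma (tropomyosin) and tnni2a.4 (troponin I) had 5715 ± 98.1 and 5611 ± 689 TPM. The myosin light chain genes mylpfa and mylz3 lay in the same range, at 6647 ± 473 and 5454 ± 545 TPM. The SD of these 6 genes was small beside their distance from the median gene.

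Of the genes for protein synthesis, rplp0, the stalk protein of the large ribosomal subunit, stood at 7846, 7764 and 8279.9 TPM, and the elongation factor gene eef1a1l1 at 7459.9, 6234 and 6892 TPM. Their CV between pools (SD over mean) was 3.48% and 8.94% as TPM, and 13.1% and 11.9% as CPM. The 82 genes named rpl or rps held 25.7% ± 0.732 of TPM, with a median of 3131 TPM for a gene. Among them rps2, rps29, rpl7a and rps20 were in the leading group, at 5377, 4918, 4868 and 4808 TPM. The translationally controlled protein gene tpt1 had 6473 ± 136 TPM, the glycolytic gene gapdh 5225 ± 558 TPM and slc25a5, the exchanger of ADP and ATP of the mitochondrial inner membrane, 4984 ± 303 TPM. The skin keratin genes krt4 and cyt1 stood at 5530.3 ± 556 and 4775 ± 421 TPM.

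Pancreatic trypsin genes were also in the leading group. prss59.2 stood at 14743, 5967 and 16182 TPM, prss59.1 at 6446, 2609 and 6794 TPM and try at 6767, 2659 and 6281 TPM. All of them were far lower in control 2 than in the other pools, and so was zgc:92041, a leading gene that the table gives no name, at 6549, 3031 and 6239 TPM. The trypsin genes are close copies of each other, so the split of reads between them is uncertain.

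**Figure D1:**
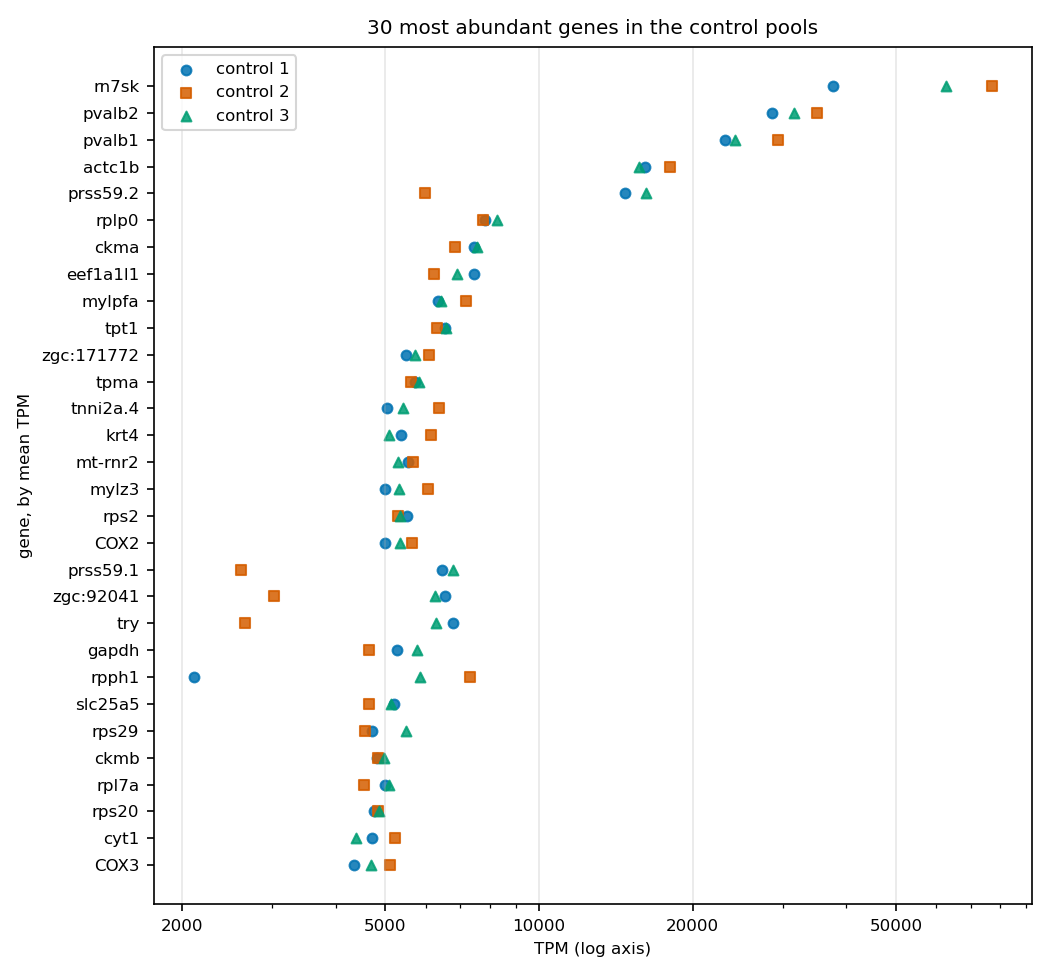
TPM of the 30 most abundant genes (log axis) in each control pool, ordered by mean TPM, with controls 1, 2 and 3 as circles, squares and triangles. The pools lie close together for muscle and ribosomal genes, whereas the trypsin genes prss59.2, prss59.1 and try and the gene zgc:92041 sit far lower in control 2 and the RNA genes rn7sk and rpph1 are lowest in control 1.

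By gene class, 22919 protein-coding genes held 94.1, 89.7 and 91.4% of TPM, a mean of 91.7% ± 2.24. Their share of counts was 96.8% ± 0.64, since TPM divides by length and raises short genes such as rn7sk. The class small nuclear RNA was rn7sk alone. Long non-coding RNA genes numbered 1478 and held 0.748% ± 0.0748 of TPM, with 582 at 1 TPM or more, against 18488 of the protein-coding genes. The median long non-coding gene stood at 0.687 TPM and the median protein-coding gene at 4.002 TPM. The most abundant gene with a name in the long non-coding class was sycn.2, named for the zymogen granule protein syncollin, at 540, 194 and 561 TPM. It is also on the exocrine pancreas list, so its class in the table does not match the product its name gives. Of 100 microRNA genes, 39 reached 1 TPM. The highest was mir29b-1 at 21.3, 14.4 and 20.7 TPM, followed by mir726 at 8.89, 9.66 and 3.66 TPM and mir124-3 at 7.65, 7.43 and 5.13 TPM. As mir726 had only 31, 27 and 14 counts and mir124-3 only 37, 29 and 26, their order is uncertain. Values of microRNA genes from such libraries are reads over the precursor and its host transcript and not levels of the mature microRNA.

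The mitochondrial genome, with 37 genes in the table, held 2.63% ± 0.137 of TPM. The cytochrome oxidase genes led its protein-coding genes, with COX2 at 4982, 5634 and 5331 TPM, COX3 at 4341, 5112 and 4676 TPM and COX1 at 3453, 3568 and 3205 TPM. Cytochrome b (CYTB) had 734 ± 15.5 TPM. Genes of the NADH dehydrogenase complex, which takes electrons from NADH, were lower and ran from 606 TPM (ND3) to 102 TPM (ND6), and those of ATP synthase were at 238 TPM (ATP6) and 137 TPM (ATP8). All of these messengers come from shared precursor transcripts of a compact genome. The large ribosomal RNA mt-rnr2 stood at 5496 ± 178 TPM and the small one, mt-rnr1, at 855 ± 15.3 TPM, after depletion of ribosomal RNA. Among the tRNA genes trnS1 had 3232, 3890.4 and 3390.1 TPM and the next, trnM, 31.1, 33.1 and 30.7 TPM. Levels of tRNA genes rest on few bases of sequence, and the sources used here do not say whether counting used strand, so reads of overlapping transcripts may be among them.

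To see which organs the RNA of the whole larva reports on, marker gene lists were read as medians of TPM. Of 39 tissue lists with measured genes, 29 had a median above that of all genes. The highest medians were those of the lens (1159 TPM), fast muscle (905 TPM), exocrine pancreas (839 TPM), epidermis (305 TPM), cone photoreceptors (143 TPM) and liver (124 TPM). The lowest were those of germ cells (0.605 TPM), the steroid-making interrenal gland (0.71 TPM) and thrombocytes (0.728 TPM). In pools of whole larvae fewer cells of a type and less RNA per cell cannot be told apart, and lists of unlike genes do not measure cell numbers.

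**Figure D2:**
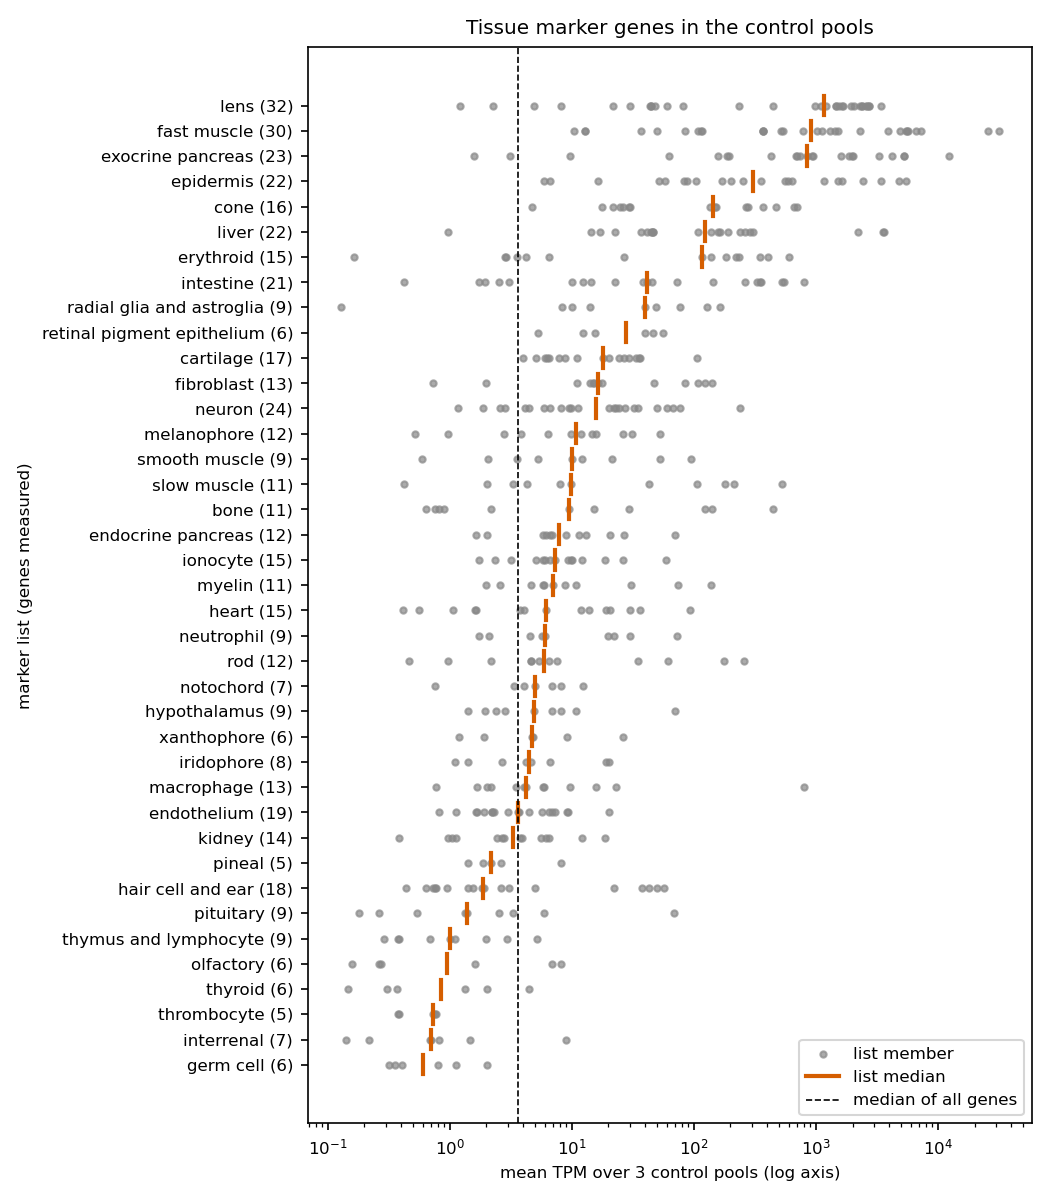
Mean TPM over the 3 control pools (log axis) of every measured gene of each tissue marker list, with the list median as an orange bar and the median of all genes as a dashed line; the number of measured genes stands after each list name. Lens, fast muscle, exocrine pancreas and epidermis have the highest medians, between 305 and 1159 TPM, and 10 lists from kidney downwards lie under the median gene.

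All 30 fast muscle genes reached 10 TPM and together they held 10.9% ± 0.697 of TPM, where 23.6% of all genes reached 10 TPM. Behind pvalb2, pvalb1 and ckma the list ran down to the calsequestrin gene casq1a, at 12.8 TPM, and to a member without a gene name. Slow muscle, the thin superficial layer used for steady swimming, was measured by 11 genes, of which 5 reached 10 TPM. Its leading genes were myl13 (525 ± 15.1 TPM), tpm3 (215 ± 25.6 TPM) and the slow myosin heavy chain smyhc1 (179.7 ± 14.8 TPM), and its lowest was tnni1a (0.426 ± 0.133 TPM). Heart genes were lower still than muscle genes of the trunk. The cardiac actin copy actc1a had 93.9 ± 19.8 TPM, the atrial and ventricular light chain myl7 36.2 ± 13.8 TPM and cmlc1 30.2 ± 8.21 TPM, and the lowest heart gene was the calcium release channel ryr2b (0.418 ± 0.239 TPM). In smooth muscle acta2 (95.5 ± 3.06 TPM), tagln (52.9 ± 1.80 TPM) and desmb (21.3 ± 1.83 TPM) led.

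Eye genes were among the highest of the larva. Crystallins, the proteins that give the lens its refractive power, filled the lens list, in which 20 of 32 genes reached 100 TPM and the genes together held 3.74% ± 0.826 of TPM. The gamma-M crystallins crygm2d2, crygm2d4 and crygm2d10 stood at 3028, 4346 and 2888 TPM, at 2407, 3532 and 2304 TPM and at 2455, 3471 and 2260 TPM, each highest in control 2. They belong to a tandem family of near-identical copies, so their single levels are uncertain, while crygm3 was the lowest of the list at 1.21 ± 0.0992 TPM. Cone genes were higher than rod genes, with medians of 140.4, 165 and 117 TPM against 6.06, 6.09 and 6.29 TPM in the pools. The cone transducin gamma gene gngt2b had 698 ± 107 TPM, the ultraviolet opsin opn1sw1 657 ± 87.6 TPM and the cone phosphodiesterase inhibitor pde6h 474 ± 79.4 TPM, and guca1d was lowest at 4.72 ± 1.44 TPM. Rhodopsin (rho) had 260.4 ± 14.1 TPM, with the rod genes gngt1 at 177 ± 24.2 TPM and sagb at 62.1 ± 15.3 TPM, and the median of the rod list fell to 5.96 TPM, most of its members being far lower. Cones mature before rods in zebrafish and carry larval vision. The retinal pigment epithelium, which recycles the visual chromophore, was measured by 6 genes from rlbp1b (77.6, 16.8 and 74.0 TPM), rgra (63.2, 21.8 and 53.8 TPM) and rpe65a (60.03, 13.4 and 46.4 TPM) to lratb.2 (8.09, 1.60 and 6.18 TPM). All of them were lowest in control 2.

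Digestive organs were well represented. Of 23 exocrine pancreas genes 19 reached 100 TPM, and the list held 5.46%, 2.25% and 5.43% of TPM. The share in control 2 was the lowest. The regulator ptf1a, which specifies the acinar cells, was the lowest member at 1.58 ± 0.477 TPM, so the height of the list lies in its secreted enzymes. Liver genes had a median of 132, 111 and 129.6 TPM and were led by the lipoprotein gene apoa2 (3623 ± 361 TPM), the retinol carrier rbp4 (3523 ± 248 TPM) and the liver fatty acid binding protein fabp10a (2230.3 ± 87.1 TPM), with the haem binding protein hpx at only 0.97 ± 0.311 TPM. Intestinal genes were led by the chitinase chia.2 (926, 550.1 and 908 TPM), apoa4b.1 (647, 344 and 665 TPM) and the bile acid binding protein fabp6 (434, 651 and 493 TPM). The lowest was fabp1b.2, at 0.427 ± 0.146 TPM. Hormone genes of the pancreas were measured too. The endocrine list was led by neurod1 (70.4 ± 10.3 TPM), which neurons also express, insulin (ins, 26.8 ± 3.49 TPM) and the somatostatin gene sst1.2 (20.5 ± 3.37 TPM), and ended with ghrelin (ghrl, 1.64 ± 0.78 TPM). In the kidney list 2 of 14 genes reached 10 TPM, led by slc4a4a (18.8 ± 1.98 TPM) and rhcgb (12.1 ± 1.87 TPM), the latter shared with ionocytes of the skin, and the slit diaphragm gene nphs1 was at 0.382 ± 0.0523 TPM.

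The skin list had 15 of 22 genes at 100 TPM or more and held 2.37% ± 0.166 of TPM, from krt4, cyt1 and krt91 (3438 ± 83.4 TPM) down to aep1 (5.91 ± 1.05 TPM). Ionocytes, the skin cells that take up salts, were led by the sodium pump subunit atp1b1b (59.11 ± 5.35 TPM), the carbonic anhydrases ca2 (26.6 ± 2.13 TPM) and ca15a (18.7 ± 2.27 TPM), with the chloride channel cftr lowest (1.76 ± 0.398 TPM). Among pigment cells the melanophore gene pmela stood at 71.8, 28.8 and 57.8 TPM, tyrp1b at 40.4, 17.2 and 36.5 TPM and dct at 32.2, 14.1 and 32.8 TPM, all lowest in control 2. The regulator mitfa was the lowest of that list at 0.516 ± 0.167 TPM. Iridophore and xanthophore lists were led by genes with wider expression, impdh1b (20.2 ± 1.83 TPM) and scarb1 (26.6 ± 8.09 TPM), and ended with alx4b (1.103 ± 0.207 TPM) and slc2a15a (1.199 ± 0.49 TPM).

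Skeletal tissue was led by the collagen of cartilage, col2a1a, at 107 ± 33.5 TPM, followed by the hypertrophic collagen col10a1a (36.1 ± 3.72 TPM) and matn1 (35.4 ± 2.13 TPM). Bone shared its leading genes with connective tissue: sparc had 447 ± 17.6 TPM, col1a1a 142 ± 38.3 TPM and col1a2 124 ± 31.0 TPM, and the osteoblast regulators were far lower, runx2a being last at 0.642 ± 0.509 TPM. The fibroblast list added col1a1b (109 ± 23.7 TPM) and ended with tnxba (0.73 ± 0.37 TPM). Notochord genes were low, from loxl1 (12.5 ± 1.45 TPM) to entpd5a (0.758 ± 0.204 TPM). The collagen genes of these lists are long. Of 17 cartilage genes 9 and of 8 bone genes with a mean count of at least 100, 4 were highest in control 2. Their median log2 deviations there were 0.07 and 0.06. Of 13 fibroblast genes 12 were highest in control 2, beside 36.6% of all genes. The median log2 deviation of the fibroblast genes there was 0.34, and 0.27 with the trend on gene length taken out of each pool.

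In the nervous system 13 of 24 neuron genes reached 10 TPM. The tubulin regulator stmn1b led with 238 ± 29.5 TPM, followed by sncb (77.9 ± 8.46 TPM) and the synaptic fusion protein snap25a (68.0 ± 8.88 TPM), and the neurofilament gene nefmb was lowest (1.18 ± 0.0966 TPM). Radial glia had a higher median, 39.9 TPM, with glutamine synthetase (glula, 165 ± 17.5 TPM), fabp7a (128 ± 22.7 TPM) and gfap (77.5 ± 5.92 TPM) in front and the brain aromatase cyp19a1b last (0.128 ± 0.0475 TPM). Myelin was already measurable, with mbpa at 139 ± 10.3 TPM, mbpb at 74.7 ± 7.29 TPM and plp1b at 30.6 ± 3.85 TPM, and plp1a lowest (1.98 ± 0.193 TPM). Sense organs other than the eye were at low levels. Hair cell and ear genes were led by s100t (56.8 ± 7.62 TPM), pvalb9 (49.9 ± 6.04 TPM) and the otolith protein gene otomp (43.0 ± 5.71 TPM) and fell to tmc2a (0.442 ± 0.201 TPM), part of the transduction channel. Olfactory genes ran from gnal (8.21 ± 0.605 TPM), which other neurons also use, to trpc2b (0.159 ± 0.103 TPM), and pineal genes from otx5 (8.23 ± 2.01 TPM) to bsx (1.43 ± 0.185 TPM).

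Hormone genes of single glands showed steep ranks. Growth hormone (gh1) stood at 71.9, 62.9 and 71.4 TPM, and the next pituitary genes, pomca (5.90 ± 0.447 TPM) and prolactin (prl, 3.28 ± 0.401 TPM), were far below it, down to lhb (0.182 ± 0.0646 TPM), a subunit of luteinizing hormone. In the hypothalamus the melanin-concentrating hormone copy pmchl had 70.35 ± 10.8 TPM, pmch 10.9 ± 1.05 TPM and gnrh3 8.21 ± 1.71 TPM, and avp was lowest (1.42 ± 0.262 TPM). Thyroglobulin (tg) stood at 4.48 ± 1.53 TPM and the thyrotropin receptor tshr at 0.147 ± 0.0379 TPM. In the interrenal, star had 9.005 ± 1.54 TPM, cyp17a2 1.48 ± 0.122 TPM and nr5a1a 0.143 ± 0.103 TPM. Of the germ cell genes piwil1 (2.03 ± 0.177 TPM) and ddx4 (1.12 ± 0.15 TPM) led and nanos3 was lowest (0.32 ± 0.188 TPM). The yolk protein genes of the vitellogenin list were not analysed here.

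Blood was read mainly through its haemoglobins. The erythroid list had 15 measured genes of 22 listed, and the embryonic globins hbbe1.1, hbae3 and hbbe1.3 stood at 608 ± 26.2, 404 ± 46.1 and 351 ± 13.1 TPM. Globin genes are clustered copies, and reads shared between them make the single values uncertain. The regulator gata1a was at 0.166 ± 0.105 TPM. Neutrophil genes were led by lysozyme (lyz, 73.3 ± 2.68 TPM) and srgn (30.2 ± 4.09 TPM), with csf3r at 1.73 ± 0.346 TPM. In the macrophage list apoeb stood at 796 ± 55.1 TPM, but this lipoprotein gene is also expressed in skin and brain, and the next members grn2 (23.0 ± 3.32 TPM) and grn1 (15.7 ± 0.655 TPM) were much lower, down to c1qa (0.767 ± 0.173 TPM). Lymphocyte and thymus genes were lower still, with ccl25a at 5.20 ± 0.572 TPM, rag1 at 2.98 ± 0.548 TPM and rag2 at 0.289 ± 0.112 TPM, so no member of that list reached 10 TPM. Thrombocyte genes lay between 0.78 ± 0.22 TPM (gp9) and 0.38 ± 0.114 TPM (itga2b). The endothelial genes vsg1 (20.2 ± 3.27 TPM), kdrl (9.37 ± 2.15 TPM) and pecam1 (9.22 ± 0.933 TPM) led the vessel list and stab2 closed it (0.814 ± 0.345 TPM).

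The unexposed state was also read through genes that respond to stress, feeding and light. Constitutive chaperones were abundant, hspa8 at 2926 ± 386 TPM and hsp90ab1 at 1276 ± 172 TPM, whereas the heat-inducible hsp70l was at 4.61, 4.78 and 5.94 TPM. The interferon list had a median of 3.41 TPM, with stat1a at 26.3 ± 4.86 TPM and 1 of 16 genes at 10 TPM or more. In the inflammation list the inhibitor gene nfkbiab stood at 106 ± 40.5 TPM and the cytokine il1b at 1.102 ± 0.216 TPM. They were named as the highest and the lowest member of that list. Of the genes of fasting and gluconeogenesis 16 of 20 reached 10 TPM, among them fbp1b (254 ± 45.3 TPM), the muscle ubiquitin ligase trim63a (209.9 ± 8.95 TPM) and pck1 (219.6, 110.4 and 278 TPM). Clock genes had a median of 12.5, 11.5 and 9.45 TPM, led by cry1ba (67.5 ± 10.19 TPM), bhlhe40 (66.5 ± 15.2 TPM) and rorca (59.6 ± 9.65 TPM). Transcripts of the clock cycle over the day, and the hour of collection is not given, so these levels belong to an unknown phase.

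Whether a copy of a duplicated gene dominates was tested for every pair of symbols that differ in a final a or b. Only pairs with both copies read in every sample of the series could enter. Pairs with an unread copy are therefore missing from the shares below. Copies of unequal level were common. Of 2615 pairs with a summed level of at least 1 TPM, 1432 (54.8%) had a copy at least 2-fold higher with a limma adjusted p under 0.05. The a copy was the higher in 806 (30.8%) and the b copy in 626 (23.9%). A 10-fold or larger difference was called in 7.19% of the pairs (188), and 81.8% (2139) passed the same limma test at any fold. The higher copy was the same in all 3 pools for 2330 pairs (89.1%) and changed between pools for 285. Among called pairs the exception was tecta and tectb, which encode different tectorins. Calls were more frequent in abundant pairs, made in 51.3% of pairs summing to between 1 and 10 TPM, in 55.9% of those between 10 and 100 TPM and in 70.199% of those from 100 TPM, where the low pairs are also the least precisely measured. Some symbols that end in a and b are not duplicates, and 2516 of the pairs had the same gene name but for the letter, of which 1372 were called. A matching name does not make a pair duplicates, since actl6a and actl6b match and encode different proteins.

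**Figure D3:**
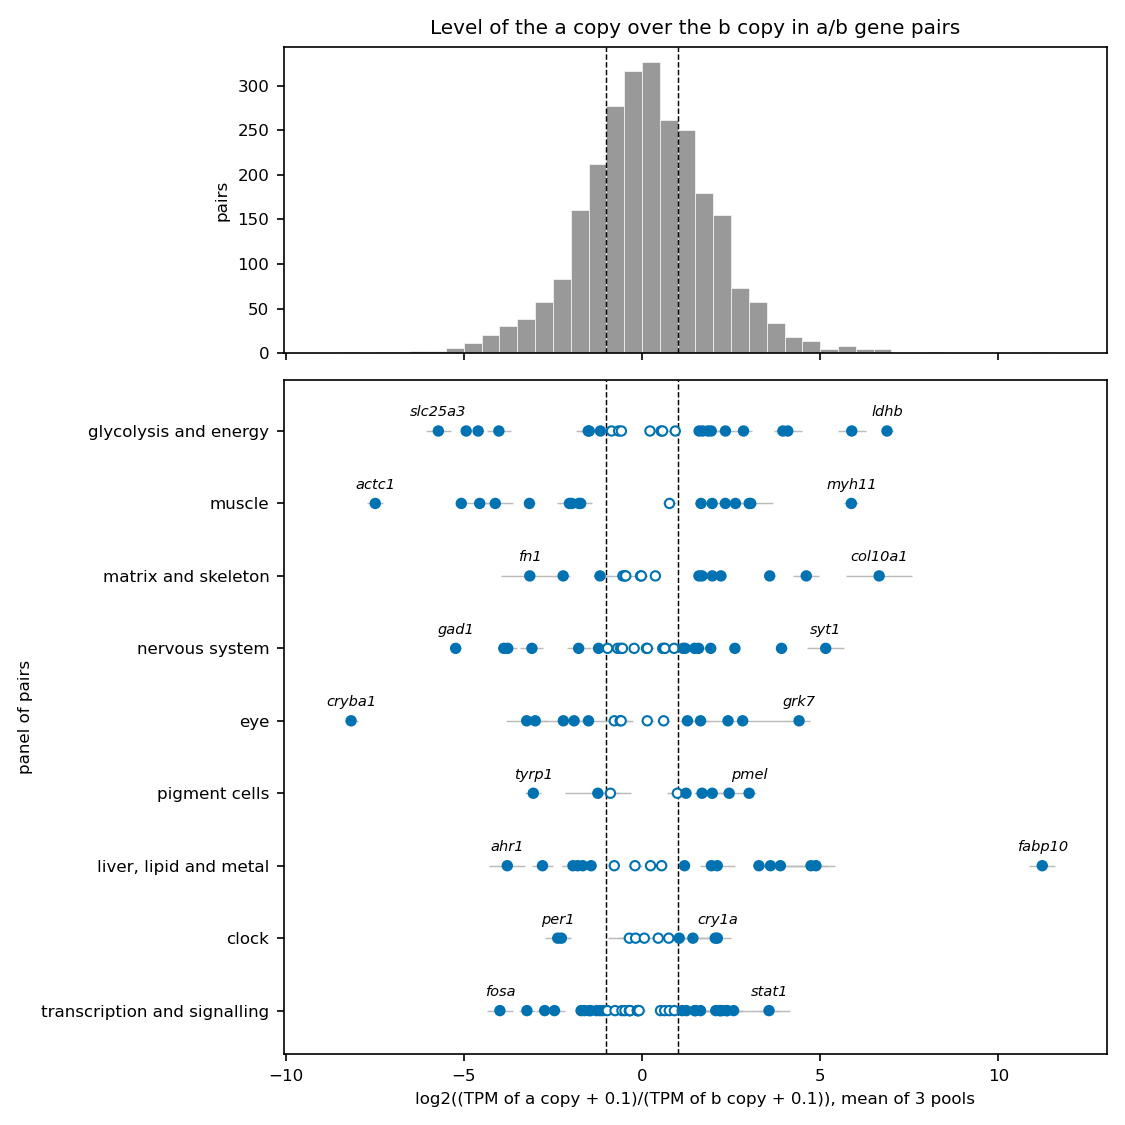
Upper panel, the number of a/b pairs by the log2 ratio of the TPM of the a copy over that of the b copy (pseudocount 0.1, mean of 3 control pools), with dashed lines at 2-fold. Lower panel, the same ratio for the panel pairs of each theme, filled where called, with the SD over the pools as a grey bar and the extreme pairs labelled. Muscle pairs lie almost all outside the 2-fold lines, whereas clock and nervous system pairs are spread across them.

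The largest ratio toward an a copy was that of fabp10, a fatty acid binding protein of the liver. fabp10a stood at 2171, 2330.3 and 2189.7 TPM and fabp10b at 1.07, 0.662 and 0.794 TPM, a log2 ratio of 11.23 ± 0.16 (SE, limma adjusted p = 6.48e-06). The same direction held in each pool, as in the other pairs of this paragraph. Of the lactate dehydrogenase B genes ldhba had 882, 729 and 789.7 TPM and ldhbb 8.27, 6.17 and 5.87 TPM, a log2 ratio of 6.88 ± 0.11. The ribosomal protein gene rps8a had 4420.3 TPM against 16.1 TPM of rps8b, and faua, whose product is cut into a ribosomal protein and a ubiquitin-like peptide, had 2245 against 23.0 TPM. Of the suppressors of cytokine signalling socs1a had 40.9 TPM and socs1b 0.263 TPM, and the collagen of hypertrophic cartilage was mainly col10a1a (33.1, 40.2 and 34.8 TPM against 0.1, 0.723 and 0.177 TPM of col10a1b). The water and glycerol channel aqp3a had 84.7 TPM and aqp3b 1.18 TPM. Of muscle genes, tmem182a, the calcium channel subunit cacng1a and the protease capn3a had 37.2, 19.9 and 67.4 TPM, and their b copies 0.224, 0.232 and 0.896 TPM. The remaining pairs of the 12, eif5a with eif5b and actl6a with actl6b, pair different proteins that share a stem. The 12 log2 ratios lay between 6.02 and 11.23, and the largest limma adjusted p among them was 9.37e-05.

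Toward b the largest ratio was that of a lens crystallin. cryba1b stood at 1362, 1829.5 and 1219 TPM and cryba1a at 4.86, 5.43 and 4.59 TPM, a log2 ratio of 8.16 ± 0.12 in favour of b (SE, limma adjusted p = 6.48e-06). The actin gene actc1b had 16125, 18052 and 15686 TPM and its partner actc1a 94.8, 113 and 73.7 TPM, a log2 ratio of 7.49 ± 0.13 in favour of b. Other muscle genes in this group were mybphb (352 TPM, mybpha 5.94 TPM), the fast troponin T tnnt3b (3892 TPM, tnnt3a 116 TPM) and dhrs7cb (30.3 TPM, dhrs7ca 0.688 TPM). The mitochondrial phosphate carrier slc25a3b had 438 TPM against 8.28 TPM of slc25a3a, and the enzyme that makes the transmitter GABA, gad1b, 34.7 TPM against 0.822 TPM of gad1a. sumo2b, whose product is conjugated to proteins, had 76.6, 58.5 and 63.0 TPM and sumo2a 0.655, 0.522 and 0.677 TPM. The actin capping gene capgb had 27.4 TPM against 0.312 TPM, caprin1b 165 TPM against 4.38 TPM, and prelid3b 123, 43.1 and 149 TPM against 2.72, 2.37 and 2.28 TPM. The last of the 12, il10ra and il10rb, are the alpha and beta chains of a receptor and not copies. Whether prelid3a and prelid3b are copies or separate genes was not checked, as pairs were made by symbol. The log2 ratios of a over b lay between -8.16 and -5.07, with a largest limma adjusted p of 7.8e-05.

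By function, 174 of the 244 pairs listed in a panel were measured, and 118 of these (67.8%) were called, beside 54.8% of all pairs. The panel was written from known genes and leans to abundant ones. In muscle 16 of 17 pairs were called, 7 toward a and 9 toward b. acta1b (336, 423 and 355 TPM) exceeded acta1a (104, 121 and 99.9 TPM), mylpfa (6334, 7192 and 6417 TPM) exceeded mylpfb (1142, 1459 and 1357 TPM), and the calcium release channel ryr1b of fast fibres (11.5, 17.8 and 9.24 TPM) exceeded ryr1a of slow fibres (2.28, 5.71 and 1.93 TPM). The order of the copies was the same in the 3 pools for each. Sarcoplasmic calsequestrin was mostly casq1b (49.96 TPM, casq1a 12.8 TPM), desmin mostly desma (132 TPM, desmb 21.3 TPM) and smooth muscle myosin almost wholly myh11a (12.1 TPM, myh11b 0.113 TPM). The pair not called was myom1, with 85.2 TPM for the a copy and 50.02 TPM for the b copy.

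In energy metabolism 17 of 24 pairs (70.8%) were called, beside 54.8% of all pairs. Of the glycolytic genes, eno1a (enolase) had 303, 328 and 291 TPM against 19.5, 22.2 and 17.6 TPM of eno1b, tpi1b (triosephosphate isomerase) 263, 235 and 260.4 TPM against 9.86, 10.8 and 10.3 TPM of tpi1a, and aldocb (aldolase) 127, 116 and 98.5 TPM against 3.94, 3.88 and 3.06 TPM of aldoca. The mitochondrial creatine kinase was ckmt2b (392 TPM, ckmt2a 24.5 TPM) and pyruvate dehydrogenase pdha1a (77.9 TPM, pdha1b 1.25 TPM). By contrast the muscle creatine kinases ckma and ckmb were both abundant, with a log2 ratio of 0.58 ± 0.10 (SE, limma adjusted p = 0.00319), which passed the p threshold but not 2-fold. pkma and pkmb were likewise shared, at 51.0 and 80.1 TPM.

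Of eye pairs 11 of 16 (68.8%) and of pigment pairs 7 of 9 (77.8%) were called, beside 67.8% of the panel and 54.8% of all pairs. Cone arrestin was mainly arr3a (137, 159 and 108 TPM, arr3b 26.0, 26.7 and 22.3 TPM) and rod arrestin mainly sagb (55.7, 79.6 and 50.9 TPM, saga 6.94, 8.53 and 7.24 TPM). In zebrafish arr3a is known from red and green cones and arr3b from blue and ultraviolet cones. The cone kinase grk7a had 26.6 TPM and grk7b 1.16 TPM. The lens water channels mipa and mipb were both used, at 30.2 and 44.4 TPM, as were the opsin-related genes rgra and rgrb, at 46.2 and 43.2 TPM. Among pigment genes tyrp1b (31.4 TPM) exceeded tyrp1a (3.87 TPM), pmela (52.8 TPM) exceeded pmelb (6.67 TPM) and the receptor gene kita (9.89 TPM) exceeded kitb (2.54 TPM). The regulator mitfb stood at 1.43, 1.90 and 0.826 TPM and mitfa at 0.618, 0.323 and 0.607 TPM, and without control 2 or with a pseudocount of 1 TPM this pair was not called.

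In the nervous system 14 of 25 pairs were called, a share (56.0%) near that of all pairs. syt1a (a calcium sensor of vesicle release, 20.1 TPM) stood far over syt1b (0.467 TPM), stmn1b (238 TPM) over stmn1a (17.4 TPM), plp1b (30.6 TPM) over plp1a (1.98 TPM) and the astroglial glutamate transporter slc1a2b (39.9 TPM) over slc1a2a (4.59 TPM). Other pairs were not called. snap25a had 78.2, 63.7 and 62.1 TPM and snap25b 61.0, 63.1 and 58.8 TPM, a log2 ratio of 0.15 ± 0.12 (SE, limma adjusted p = 0.28). Glutamine synthetase copies glula and glulb had 165 and 192 TPM, and the calmodulin copies calm1a and calm1b, which encode the same protein, 81.5 and 74.8 TPM.

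For matrix and skeleton 10 of 16 pairs (62.5%) were called, beside 54.8% of all pairs. col2a1a (107 TPM) led col2a1b (23.6 TPM), col5a2a (27.02 TPM) led col5a2b (1.07 TPM), and fibronectin was mainly fn1b (51.8, 46.7 and 42.3 TPM, fn1a 4.25, 9.96 and 3.27 TPM). Type I collagen used both col1a1a (119.9, 186 and 119.9 TPM) and col1a1b (98.1, 136 and 92.1 TPM). In the panel of liver, lipid and metal genes 15 of 19 (78.9%) were called. apoa1b (2146 TPM) exceeded apoa1a (686 TPM), apoeb (796 TPM) exceeded apoea (213 TPM) and the iron store fth1a (910.2 TPM) exceeded fth1b (30.7 TPM). Of the sensors of foreign compounds, the oxidative stress factor nfe2l2a (49.7, 45.6 and 41.1 TPM) was far over nfe2l2b (2.08, 0.909 and 2.12 TPM), and the aryl hydrocarbon receptor ahr1b (5.82, 4.55 and 4.20 TPM) was over ahr1a (0.193, 0.353 and 0.243 TPM). Insulin receptor copies insra and insrb were not called, at 19.6 and 16.6 TPM, nor were igfbp1a and igfbp1b, at 133 and 149.8 TPM.

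Of clock pairs 6 of 11 (54.5%) were called, a share near the 54.8% of all pairs. The called pairs included per1b (3.09 TPM) over per1a (0.496 TPM) and cry1aa (45.9 TPM) over cry1ab (10.5 TPM), while arntl1a and arntl1b stood at 16.2 and 15.4 TPM. Of transcription and signalling pairs 24 of 39 (61.5%) were called. Among them were the immediate early genes fosab (50.2, 45.9 and 35.8 TPM, fosaa 3.02, 2.18 and 2.81 TPM) and junbb (70.6, 66.2 and 58.8 TPM, junba 6.66, 6.47 and 7.42 TPM), the interferon factor stat1a (26.3 TPM, stat1b 2.11 TPM) and the hypoxia factor hif1ab (15.03 TPM, hif1aa 2.62 TPM). The ribosomal protein copies rpl5a, at 2612, 2686 and 2580.2 TPM, and rpl5b, at 3018, 2619.9 and 2912 TPM, were not called (limma adjusted p = 0.36). The sources used here do not say how reads of near-identical copies were assigned, which bears on such pairs.

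The ratio of some pairs moved between pools, and in each of the 4 pairs given here a copy was lowest in control 2. rlbp1b, the retinal carrier of the pigment epithelium, stood at 77.6, 16.8 and 74.0 TPM while rlbp1a stood at 17.3, 15.9 and 15.2 TPM, so the copies were near equal in control 2 and far apart in the others. The call of this pair was lost without control 1 and without control 3. klf2a was at 132, 35.7 and 134 TPM and klf2b at 20.4, 25.6 and 8.39 TPM, a call lost on the CPM scale with no length correction. For the clock repressor nr1d2 the higher copy changed, with nr1d2a at 37.7, 11.9 and 54.1 TPM and nr1d2b at 24.7, 24.2 and 15.6 TPM, and the pair was not called (limma adjusted p = 0.437). nocta and noctb, which encode nocturnin, also changed places, nocta at 18.0, 4.73 and 23.0 TPM and noctb at 5.72, 5.32 and 5.01 TPM. These 4 pairs are among the 15 with the largest SD of the log2 ratio, of those summing to at least 20 TPM, and were picked after their values were seen.

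Most genes varied little between the pools. Of 17993 genes with a mean count of at least 100, the median coefficient of variation (CV, SD over mean of CPM) was 11.5%, where counting alone gives a median of 4.29%. The common biological CV that edgeR fitted was 17.8%, and 11.4% over controls 1 and 3. A CV over 50% was found in 212 genes (1.18%). In 93 of them control 2 was the pool that stood off by being low, and in 94 by being high. Control 3 stood off in 18 genes by being high. With control 2 left out 36 genes exceeded 50%, with control 1 left out 527 and with control 3 left out 335. Of the genes high in control 2, 63 were in the longest of the 10 length classes, against 1 of the genes low in control 2. With the trend on gene length taken out of each pool, 48 of the high and 80 of the low genes still exceeded 50%. This correction was added after seeing the data.

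Among the 20 named genes with the largest CV, the first was the selenoprotein H gene seph, at 0.418, 0.468 and 18.1 CPM, or 21, 18 and 785 counts. Control 3 held most of its reads. The second was fkbp5, a co-chaperone of the glucocorticoid receptor that is induced by corticosteroids, at 152, 21.4 and 410.2 CPM. It was lowest in control 2, highest in control 3 and differed between controls 1 and 3 as well. Long genes made up much of the rest. The giant muscle genes ttn.1 and ttn.2, which encode titin and are neighbouring copies with shared reads, stood at 1594, 7358 and 1674 CPM and at 1397, 6364 and 1460.1 CPM, and igfn1.1 at 20.6, 95.4 and 30.6 CPM. All were highest in control 2. Other such genes were the large extracellular or membrane proteins scospondin (1.77, 7.55 and 1.497 CPM), lrp2b (10.6, 46.1 and 11.4 CPM), col4a4 (1.41, 6.19 and 1.57 CPM), vcana (2.43, 9.37 and 2.26 CPM), frem3 (10.203, 39.4 and 10.7 CPM) and otogl (1.55, 5.88 and 1.84 CPM). After removal of the length trend the CV of ttn.1 was 73.9%, against 93.3%, and that of lrp2b 69.4%, against 89.2%. plekhf1, a short gene, was also high in control 2 (10.7, 43.7 and 6.82 CPM), and bhlha9 was low in control 3 (3.94, 8.90 and 1.08 CPM).

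The other genes of this group were low in control 2. cyp2r1, the vitamin D 25-hydroxylase, stood at 8.81, 1.15 and 16.8 CPM, and the titin-binding gene tcap at 17.9, 4.97 and 34.3 CPM. The regulator of G protein signalling rgs2 stood at 13.7, 3.33 and 26.3 CPM, the kinase subunit gene pik3r3a at 23.7, 9.14 and 53.4 CPM and the fatty acid elongase gene elovl1a at 7.26, 2.73 and 17.5 CPM. Each was highest in control 3. The same order held for dhrs13a.2 (95.6, 23.6 and 180.1 CPM) and ponzr4 (6.504, 0.989 and 11.6 CPM). Removal of the length trend left the CV of cyp2r1 at 88.3%, against 87.8%, and that of fkbp5 at 102%, against 102%.

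Several gene lists had a large median CV. The list with the largest median CV was the retinal pigment epithelium (56.2%), followed by the exocrine pancreas (44.0%), melanophores (38.03%), immediate early genes (34.9%) and the intestine (32.4%), beside 11.5% of all genes. By their median deviations all were low in control 2, while 1 melanophore gene, 3 immediate early genes and 2 intestine genes were highest there. There 6 of 6 pigment epithelium genes, 22 of 22 exocrine genes, 9 of 10 melanophore genes, 15 of 21 immediate early genes and 16 of 19 intestine genes were lowest in control 2, which was the lowest pool for 42.4% of all genes. The median log2 deviations from the mean of the pools were 0.61, -1.27 and 0.63 for the pigment epithelium and 0.35, -0.88 and 0.53 for the exocrine pancreas. With control 2 left out, an alternative added after seeing the data, the median CV over controls 1 and 3 was 5.02% for the pigment epithelium, 7.60% for the exocrine pancreas, 6.22% for melanophores, 14.2% for immediate early genes and 16.0% for the intestine, beside 7.15% of all genes. With the length trend removed and all pools kept the median CV of the pigment epithelium and exocrine lists was 55.2% and 40.3%.

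**Figure D4:**
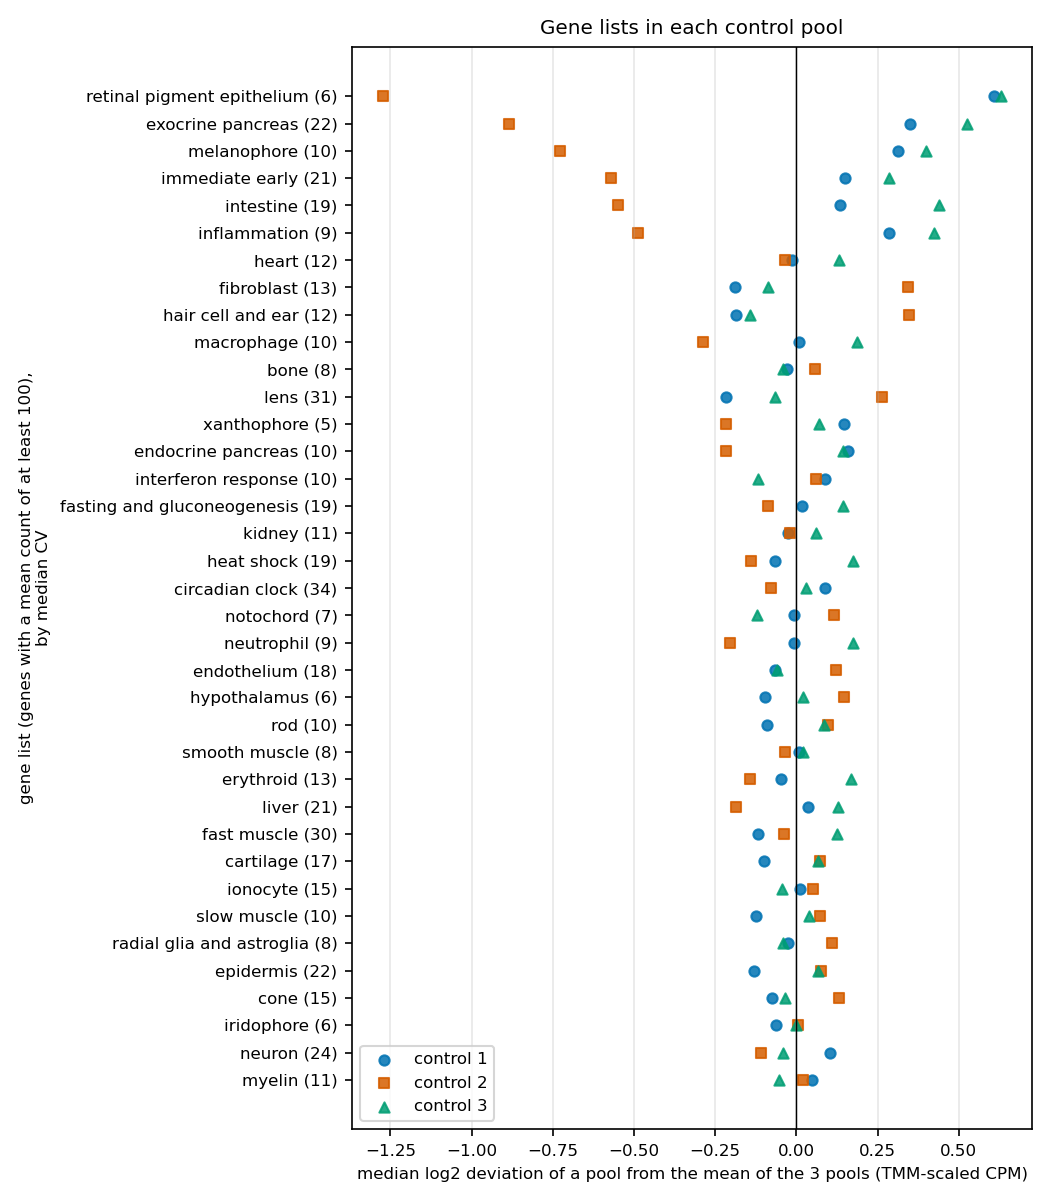
Median log2 deviation of each gene list from the mean of the 3 control pools (TMM-scaled CPM, genes with a mean count of at least 100, number of genes after the list name), ordered by median CV, with a symbol for each pool. In the top 5 lists control 2 lies below the other pools, down to -1.27 for the retinal pigment epithelium, and the lens list is highest in control 2, at 0.26.

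The most variable pigment epithelium gene was rlbp1b at 85.7, 19.1 and 95.1 CPM, and rpe65a, the isomerase that remakes the chromophore, stood at 79.0, 18.3 and 73.0 CPM. The melanin synthesis gene tyrp1a led the melanophore list, at 8.23, 2.60 and 7.83 CPM. These lists have no gene in common, but pools of whole larvae do not show which cells the reads of either list came from. Both lists were low in control 2. Of the other pigment cell lists, xanthophores were also low in control 2, though by less, with 3 of 5 genes lowest there and 1 highest. Iridophores differed little between the pools. Median log2 deviations were 0.15, -0.22 and 0.07 for xanthophores and -0.06, 0.004 and -0.001 for iridophores. Among pancreatic genes sycn.2 was the most variable at 264, 98.5 and 328 CPM, and among intestinal genes the fatty acid binding protein fabp2, at 222, 101 and 283 CPM. The growth-factor-induced gene fosl1a led the immediate early list at 4.71, 1.25 and 6.93 CPM. Every one of these genes was lowest in control 2, and their CVs (45.9% to 66.6%) exceeded what counting alone gives (1% to 7.31%). All but rpe65a were picked as the most variable named member of a list with a large median CV. Large CVs follow from that choice and are no separate result, and the lists themselves were low in control 2.

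Other lists were high in control 2. Hair cell and ear genes were highest there in 10 of 12, with median log2 deviations of -0.19, 0.35 and -0.14, and fibroblast genes in 12 of 13, with deviations of -0.19, 0.34 and -0.09. Of the lens genes 28 of 31 were highest in control 2, with deviations of -0.22, 0.26 and -0.07. In the eye, cone genes were highest there in 13 of 15, with small deviations of -0.07, 0.13 and -0.03, while rod genes were split, 6 of 10 being highest and 3 lowest in control 2. With the length trend removed, the median deviation in control 2 was 0.25 for hair cell and ear genes and 0.27 for fibroblast genes. For lens and cone genes it was then 0.34 and 0.19. Control 2 was the highest pool for 36.6% of all genes. Liver genes had deviations of 0.04, -0.19 and 0.13 and fast muscle genes of -0.12, -0.04 and 0.13. Lowest in control 2 were 19 of 21 liver genes and 12 of 30 fast muscle genes, beside 42.4% of all genes. The median CV was 22.01% for hair cell and ear genes and 4.51% without control 2, 22.1% and 4.87% for fibroblast genes, 18.3% and 7.64% for lens genes and 10.00% and 4.35% for cone genes. In the same order it was 12.9% and 7.69% for liver genes, 12.8% and 13.2% for fast muscle genes, 8.71% and 7.85% for neuron genes and 6.48% and 7.25% for myelin genes.

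fkbp5 led to a look at genes that corticosteroids induce in vertebrates. The list of 9 genes, with fkbp5 itself and the receptor included, was chosen after the values had been seen. Its member dusp1 is also on the immediate early list. klf9 stood at 221, 82.7 and 374 CPM, pck1 at 421, 219 and 648 CPM and sgk1 at 104, 57.9 and 118 CPM. tsc22d3 stood at 212, 146 and 231 CPM and dusp1 at 188, 101 and 213 CPM. These 5 genes were lowest in control 2. On the CPM scale they were highest in control 3, like fkbp5, whereas as TPM dusp1, sgk1 and tsc22d3 were highest in control 1. Other members of the list varied little, the metallothionein gene mt2 at 91.9, 92.4 and 92.5 CPM, the clock gene per1a at 2.31, 2.37 and 1.91 CPM and the glucocorticoid receptor gene nr3c1 at 76.5, 71.5 and 74.3 CPM. The median CV of the 8 members with a mean count of at least 100, fkbp5 among them, was 34.3%, beside 11.5% of all genes. Without control 2 it was 8.82%, beside 7.15% of all genes. As the list was built around fkbp5, its median CV is not independent of that gene. Removal of the length trend left the median CV of the list at 32.1% and took the CV of klf9 from 64.4% to 60.3%. The part of pigment cell content or pancreatic content in these differences was not tested.

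**Figure D5:**
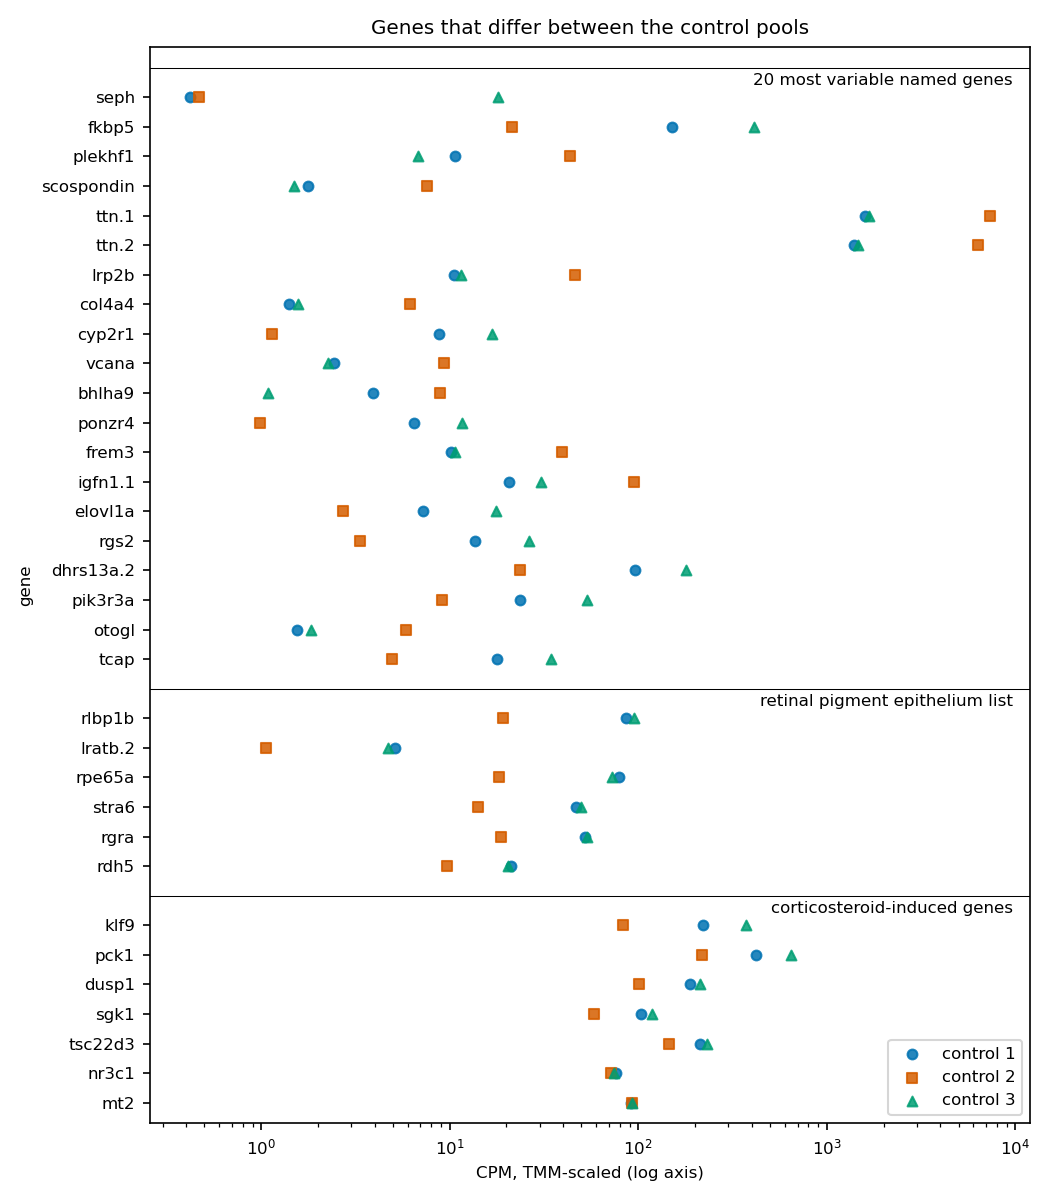
TMM-scaled CPM (log axis) in each control pool of the 20 named genes with the largest CV, of the retinal pigment epithelium list and of genes that corticosteroids induce. Control 2 is the high pool for long genes such as ttn.1 and lrp2b and the low pool for fkbp5, the pigment epithelium genes and klf9, while nr3c1 and mt2 nearly coincide in all pools.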

How the data were processed

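RNA of 3 control pools was analysed. Libraries were of the stranded total RNA type after ribosomal depletion, from RNA whose integrity number exceeded 7.0, per the labels' protocols. The submitters' processing notes list HISAT2, StringTie 2.1.3b, DESeq2 and GRCz11 without saying what each did. The sources used here do not say how reads of near-identical or overlapping genes were counted or whether counting used strand. Per the file headers, the authors deposited read counts, TPM and FPKM per gene and sample. Counts were deposited as whole numbers, and the deposited FPKM served to derive gene lengths and as an alternative. Gene classes and names are those of the table.

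Pairs of symbols ending in a and b were tested with limma 3.58.1 in R 4.3.3: an intercept-only moderated test of log2((TPM of a + 0.1)/(TPM of b + 0.1)), with Benjamini-Hochberg adjustment over all pairs summing to at least 1 TPM. The pseudocount understates ratios of low genes. Scripts were tested on simulated data. CPM used edgeR 4.0.16 TMM scaling of the control pools. CVs were read for genes with a mean count of at least 100, and their spread between pools was described with no test. P-values measure only the spread between these pools. Of 684 listed symbols 640 were found in the table, 29 of them by a RefSeq synonym, and a symbol not found is not analysed here.

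The genes named are the 30 most abundant, the 3 highest and the lowest of each marker list, the 12 largest called pairs in each direction among pairs summing to at least 20 TPM, pairs of a preset panel, the 20 genes with the largest CV and the most variable gene of the 5 lists with the largest median CV. Symbols without a gene name were counted but not named, except zgc:92041 and zgc:171772 (5759 ± 298 TPM) of the 30 most abundant. Any further gene was picked with its values known. The members and lists were chosen with earlier results of these data known. Alternatives were leave-one-out fits, other pseudocounts, filters, thresholds and scalings, RLE scaling with DESeq2 1.42.0 among them.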

Additional observations from a re-analysis of the deposited data

How the results depend on the processing

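The share of TPM in the 100 most abundant genes became 39.0% as a share of CPM and 49.98% without rn7sk and rpph1, and lay between 52.0% and 53.8% when a pool was left out. The protein-coding share of TPM became 96.8% by counts and lay between 90.5% and 92.7% with a pool left out. Of the tissue marker lists, 28 to 29 were above the median gene with a pool left out. With means in place of medians, for the lists and for all genes alike, 14 lists were above the mean of all genes. That mean is drawn up by the 100 most abundant genes, which held 52.6% of TPM. The count of a/b gene pairs with one copy over 2-fold higher became 630 at 4-fold or more and 869 with a summed level of at least 10 TPM, where fewer pairs are tested, and 1416 to 1449 with a pool left out. Other settings gave between 1192 (pseudocount of 1 TPM) and 1499 (no length correction). Without length correction the ratio of slc2a1a over slc2a1b turned from 0.54 to -1.13 (log2) and that of hapln1a over hapln1b from -0.04 to 1.81, and neither pair was called with it. The number of genes with a CV over 50% between pools was 1261 with no filter on counts, 106 with a mean count of at least 500, 1264 past 30%, 4 past 100%, 157 with the length trend removed, and 36 to 527 with a pool left out. The lowest of these was without control 2. RLE scaling, library totals and TPM gave 212, 217 and 221. Of the alternatives for the named pairs, 1645 kept the call and the direction, 18 lost and 16 gained a call. No paired analysis was possible because the pools form 1 group and no groups were compared. With 3 pools, counts of genes past a CV are imprecise, and genes with few reads could not be read for spread.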
